A study of Mus musculus with 6 samples.

Results

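The 44 genes described here are the collagen genes of mouse retina, chosen as every gene whose symbol in the deposited count table is Col, a number, the letter a and a number, out of 31169 genes in that table. RNA was measured in whole retinas of C57BL/6 mice, 2 months old, that carried no transgene or targeted allele in the sample records. The eyes of 3 libraries had received saline and those of the other 3 had received polystyrene microbeads of 15 μm, injected into the front of the eye at 1 month of age, 4 weeks before the retina was taken, to raise intraocular pressure. Both eyes of a mouse were injected. The groups therefore share an injected eye, and no uninjected retina was part of the comparison. The records do not say whether the libraries of a group come from separate animals, so the p-values measure only the spread between these libraries, which may be technical. In the records the names of the saline libraries belong to a single series and those of the microbead libraries to a different series, and the series cannot be told apart from the injection.

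Collagens are secreted or membrane proteins in which 3 chains wind into a triple helix. Fibrillar collagens build the tensile fibrils of tissue, type IV collagen is the network of basement membranes, type VI collagen forms beaded filaments next to them, and FACIT collagens decorate fibrils. In the eye, collagens are the main material of sclera and cornea, whereas in the retina they are found chiefly in the inner limiting membrane and in the walls of vessels, and collagen IX and collagen II belong to the vitreous. Each chain is a separate gene. Some types, such as II, III, VII and XIII, are built from a single kind of chain, and others, such as VI and IX, need chains of different genes.

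The saline libraries held 36085737 to 46481382 counts on genes and the microbead libraries 13574949 to 19834366. Mitochondrial genes took 3.19% to 3.57% of the counts of the saline libraries and 8.90% to 10.6% of those of the microbead libraries. The retina was checked by its rod genes, whose summed level was 66341 to 88065 CPM (each gene's counts divided by the library size after TMM scaling, times 1e+06) in saline retina and 59263 to 73589 in microbead retina. Saline replicates 1 and 3 each stood apart from the rest of their group. In saline replicate 1 the summed level of 10 retinal ganglion cell genes was 436 CPM, against 1141 and 1450 in the other saline libraries and 993 to 1339 in the microbead libraries. Its 10 microglia genes summed to 255 CPM, against 82.8 and 120 in the other saline libraries and 61.5 to 135 in the microbead libraries. For saline replicate 3, the summed level of 9 genes of lens and cornea was 248 CPM, against 19.4 and 1.99 in the other saline libraries and 1.37 to 2.11 in the microbead libraries, and the lens crystallin *Cryaa* alone was at 210 CPM. Its summed level of 10 pigment epithelium genes was 259 CPM, against 15.0 and 62.0 in the other saline libraries and 119 to 144 in the microbead libraries. The part of these genes and of the mitochondrial share in the collagen values was not tested, and the calls are also given without each library.

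Of the 44 collagen genes, 42 had enough counts to be tested. With edgeR's quasi-likelihood test across 17707 genes and Benjamini-Hochberg adjustment, 10 of them rose in microbead retina at an adjusted p under 0.05, and none fell. That is 23.8% of the collagen genes tested, where 6.46% of all tested genes rose and 6.31% fell. The 10 that rose were *Col6a1*, *Col13a1*, *Col6a4*, *Col11a1*, *Col24a1*, *Col6a2*, *Col6a6*, *Col20a1*, *Col16a1* and *Col27a1*, with log2 fold changes of 1.88 to 2.56 and adjusted p-values from 0.00534 to 0.0469. At an unadjusted p under 0.05, 19 collagen genes were higher and 0 lower, where 15.3% and 16.2% of all tested genes were. DESeq2 called 15 higher and 0 lower, where it called 8.58% and 8.46% of all genes with an adjusted p. Its calls held 9 of the 10 and left out *Col27a1* (DESeq2 adjusted p 0.0516). They added *Col5a3*, *Col11a2*, *Col12a1*, *Col15a1*, *Col17a1* and *Col25a1*. The log2 fold change was above 0 in 31 of the 42 and below 0 in 11, with a median of 0.54 beside -0.03 over all genes tested. In 17 of the 42 every microbead library lay above every saline library, which is 40.5% where 18.8% of all tested genes did so. The opposite held for *Col1a2* alone, beside 18.9% of all tested genes.

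The collagen genes together took 0.0442% to 0.0531% of all counts in saline retina and 0.0713% to 0.0939% in microbead retina. Their summed level was 509, 469 and 474 CPM in saline replicates 1 to 3 and 728, 887 and 954 CPM in microbead replicates 1 to 3. The microbead mean was 1.77 times the saline mean, and 1.57 times it with *Col6a1* left out of the sum. In bulk RNA, fewer cells of a type and less RNA per cell cannot be told apart, and the same holds for more of either.

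**Figure D1:**
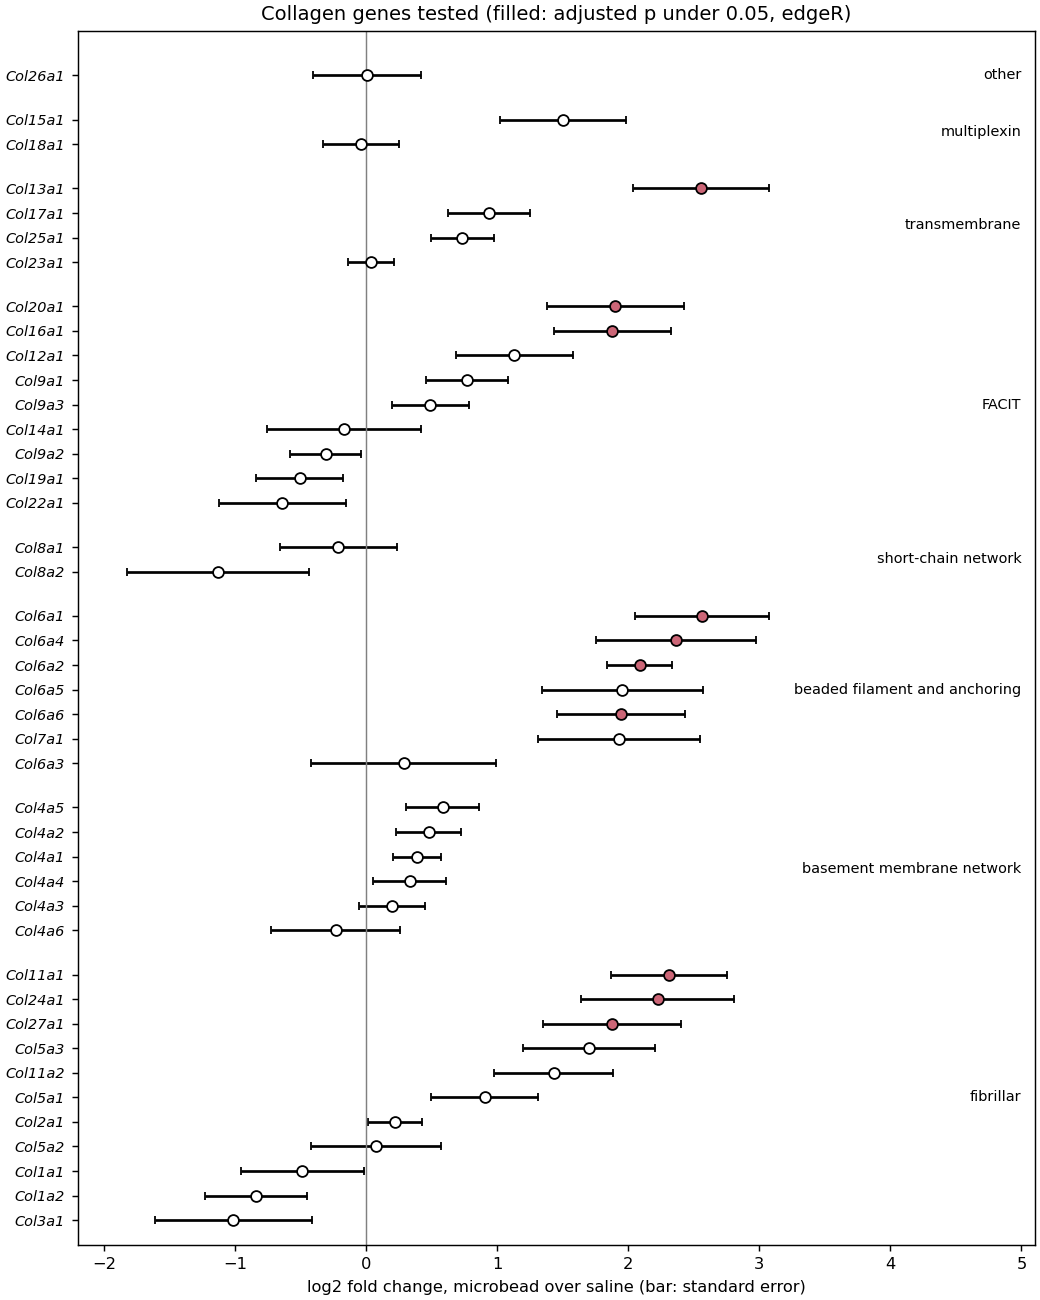
Log2 fold change of the 42 tested collagen genes in microbead over saline retina (horizontal axis, log2 units) with its standard error as a bar, grouped by collagen class. Filled points mark the 10 genes with an adjusted p under 0.05, all of which lie between 1.88 and 2.56, while the 6 type IV genes lie between -0.23 and 0.58.

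Type VI collagen held 4 of the 10 genes that rose. *Col6a1*, *Col6a2* and *Col6a3* encode the chains of the classical type VI molecule, and *Col6a4*, *Col6a5* and *Col6a6* encode chains that can take the place of the *Col6a3* product. *Col6a1* lies on chromosome 10 from 76708792 to 76726168 and *Col6a2* beside it from 76595762 to 76623630, both on the minus strand (GRCm38, GENCODE vM21). *Col6a4*, *Col6a5* and *Col6a6* lie together on chromosome 9, between 105687809 and 106096783. The sequence just before the start of *Col6a1* and *Col6a2* is shown because these neighbours rose together. Those of *Col11a1* and *Col16a1* are examples from other chromosomes, where further genes of the 10 also lie. All are from RefSeq (GRCm38.p6), read 5′ to 3′ on the strand of the gene, and stop at the first base of the gene in GENCODE. Capitals mark the letters GGGCGG and CCAAT or their reverse complements.
Col6a1, chr10:76726169-76726294, minus strand: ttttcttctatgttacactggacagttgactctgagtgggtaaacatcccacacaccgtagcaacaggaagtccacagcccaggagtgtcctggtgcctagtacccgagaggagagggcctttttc
Col6a2, chr10:76623631-76623880, minus strand: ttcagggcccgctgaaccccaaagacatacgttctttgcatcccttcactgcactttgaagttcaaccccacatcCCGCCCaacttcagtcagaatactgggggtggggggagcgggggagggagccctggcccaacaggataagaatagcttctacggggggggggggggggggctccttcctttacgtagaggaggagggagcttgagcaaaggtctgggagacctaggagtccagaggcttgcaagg
Col11a1, chr3:114030290-114030539, plus strand: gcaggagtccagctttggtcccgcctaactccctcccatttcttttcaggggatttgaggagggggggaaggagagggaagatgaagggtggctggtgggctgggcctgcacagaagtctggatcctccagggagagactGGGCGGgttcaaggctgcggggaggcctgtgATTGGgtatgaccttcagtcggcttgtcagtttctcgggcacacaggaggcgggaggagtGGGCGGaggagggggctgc
Col16a1, chr4:130047590-130047839, plus strand: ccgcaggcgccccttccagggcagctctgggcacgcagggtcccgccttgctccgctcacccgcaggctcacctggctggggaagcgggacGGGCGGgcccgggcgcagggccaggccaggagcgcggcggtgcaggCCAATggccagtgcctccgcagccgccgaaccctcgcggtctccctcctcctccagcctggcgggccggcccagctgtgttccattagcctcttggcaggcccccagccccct
No marked motif is common to all of these stretches. That of *Col6a1*, 126 bases long where the others are 250, holds none. That of *Col6a2* holds CCGCCC, and those of *Col11a1* and *Col16a1* hold both motifs, with no overlap between them.

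Over the whole promoter windows of RefSeq (250 bases before and 50 after the start, both strands searched), GGGCGG was found in 6 of the 10 genes that rose and in 22 of the 35 collagen genes that have a window in that table. It was found in 35.7% of all 32851 windows. CCAAT was found in 3 of the 10 (*Col6a4*, *Col11a1* and *Col16a1*) and 13 of the 35, against 37.4% of all windows. All 3 also held GGGCGG, so *Col11a1* and *Col16a1*, shown above as examples, do not stand for the rest of the 10. TATAAA was found in *Col13a1* alone of the 10 and in 5 of the 35, against 13.6%. Collagen windows had a median GC content of 59.8%, beside 52.7% over all windows. These matches describe letters, not bound sites.

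*Col6a1* was at 30.2, 32.0 and 5.96 CPM in saline replicates 1 to 3 and at 111, 129 and 163 CPM in microbead replicates 1 to 3. Saline replicate 3 was the lowest, and the lowest microbead library was well above the highest saline library. The mean went from 22.7 ± 14.5 to 134 ± 26.5 CPM (SD, n = 3 libraries a group), a log2 fold change of 2.56 with a standard error of 0.51 and an edgeR adjusted p of 0.0183. *Col6a2* was at 5.60, 5.79 and 4.22 CPM in saline retina and at 20.5, 18.3 and 27.7 CPM in microbead retina. The groups were far apart and the saline libraries close to each other, which gave the smallest adjusted p of any collagen gene, 0.00534, at a log2 fold change of 2.09 with a standard error of 0.25.

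*Col6a4* was at 3.32, 3.17 and 0.371 CPM in saline retina and at 10.2, 12.9 and 12.4 CPM in microbead retina, a log2 fold change of 2.36 with a standard error of 0.61 (adjusted p 0.0369). *Col6a6* was at 1.67, 1.39 and 0.456 CPM and then at 3.65, 5.34 and 4.68 CPM, a log2 fold change of 1.95 with a standard error of 0.49 (adjusted p 0.0337). In both, saline replicate 3 was again the lowest and the groups did not overlap. Exons of other genes on the opposite strand cover 1.90% and 1.49% of *Col6a4* and 0.687% of *Col6a6*. *Col6a5* stayed under 1 CPM, at 0.159, 0.145 and 0.0856 CPM in saline retina and 0.463, 0.650 and 0.455 CPM in microbead retina, and with an adjusted p of 0.0652 it did not pass the test.

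*Col6a3* did not pass the test. It was at 0.266, 0.518 and 1.20 CPM in saline retina and at 0.360, 1.37 and 0.715 CPM in microbead retina, with a log2 fold change of 0.29, a standard error of 0.71 and an adjusted p of 0.816. Saline replicate 3, the lowest saline library for *Col6a1*, was the highest for *Col6a3*, whose log2 fold change was 1.01 without that library, -0.09 without saline replicate 1 and -0.29 without microbead replicate 2. Per kilobase of exon the chains were far from equal. The length used is the union of exons over all annotated transcripts, 4380 bases for *Col6a1* and 8326 for *Col6a2*. Ratios and ranks per kilobase depend on it. *Col6a1* was at 5.19 ± 3.32 CPM per kb in saline retina and 30.6 ± 6.04 in microbead retina, *Col6a2* at 0.625 ± 0.103 and 2.66 ± 0.590, *Col6a3* at 0.0552 ± 0.0403 and 0.0682 ± 0.0429, and the sum of *Col6a4*, *Col6a5* and *Col6a6* at 0.410 ± 0.268 and 1.94 ± 0.266 (SD, n = 3).

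The ratio of *Col6a1* to *Col6a2* per kilobase was 10.2, 10.5 and 2.68 in saline retina and 10.3, 13.4 and 11.2 in microbead retina. Saline replicate 3 was the library in which the ratio was low, and the other saline libraries fell at the lower end of the microbead range. In the order of collagen genes by level per kilobase, *Col6a1* was in place 6 in saline retina and in place 1 in microbead retina. Over saline replicates 1 and 2 alone it was in place 2, at 7.10 CPM per kb. Type VI genes took 8.10%, 9.17% and 2.59% of the summed collagen CPM in saline retina and 20.1%, 18.8% and 21.9% in microbead retina.

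*Col7a1*, which encodes the anchoring fibrils that fasten epithelia to the tissue beneath, was grouped with the type VI genes. It was at 22.8, 13.2 and 2.23 CPM in saline retina and at 38.8, 42.8 and 64.2 CPM in microbead retina. The groups did not overlap, but the saline values were spread over a wide range and the adjusted p was 0.068 at a log2 fold change of 1.93. With a library left out the log2 fold change was 1.43 to 2.64. The adjusted p was 0.0190 and 0.0221 without saline replicates 1 and 3 and 0.123 to 0.214 without each of the other libraries. The group of 7 genes summed to 44.9 ± 26.6 CPM in saline retina and 223 ± 45.5 CPM in microbead retina, 4.96 times as high.

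**Figure D2:**
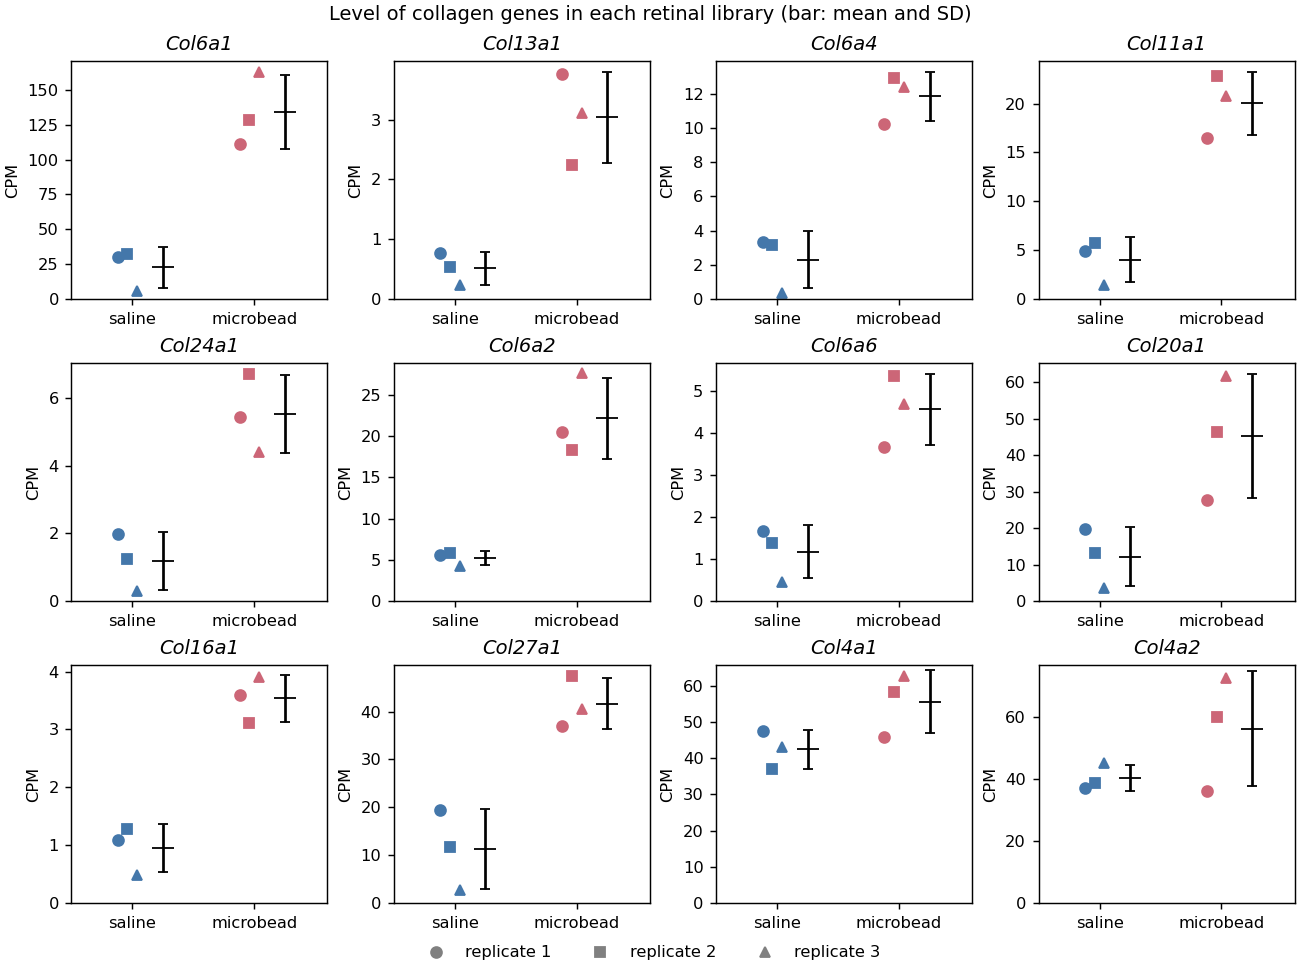
CPM of the 10 collagen genes that rose and of *Col4a1* and *Col4a2* in each library (points) and the mean with SD (bars), on linear axes from 0. Saline is in blue and microbead in red, with a shape for each replicate number, which is not taken to pair libraries. In the 10 genes that rose, saline replicate 3 (triangle) is the lowest saline library and no microbead library reaches down to a saline one, while the groups overlap for *Col4a1* and *Col4a2*.

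Of the 11 fibrillar collagen genes, 3 rose, and none of these encodes a chain of types I to III. *Col11a1*, a minor fibrillar chain that starts and limits fibrils in cartilage and vitreous, lies on chromosome 3 from 114030540 to 114220718. It was at 4.91, 5.72 and 1.40 CPM in saline retina and at 16.5, 22.8 and 20.8 CPM in microbead retina, a log2 fold change of 2.31 with a standard error of 0.44 (adjusted p 0.0168). *Col24a1*, of chromosome 3 as well, was at 1.99, 1.24 and 0.285 CPM in saline retina and at 5.46, 6.72 and 4.42 CPM in microbead retina (log2 fold change 2.23 ± 0.58 SE, adjusted p 0.0386). *Col27a1*, which with *Col24a1* makes up a separate branch of fibrillar collagens, was at 19.5, 11.7 and 2.77 CPM in saline retina and at 37.1, 47.4 and 40.5 CPM in microbead retina (1.88 ± 0.53, adjusted p 0.0469). For all 3 genes the lowest microbead library was above the highest saline one.

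The other fibrillar genes were more divided. *Col5a3*, *Col11a2* and *Col5a1* had log2 fold changes of 1.70, 1.43 and 0.90 with adjusted p-values of 0.0538, 0.0663 and 0.162. For *Col5a3* the mean rested on microbead replicate 3, at 14.8 CPM against 4.17 and 4.48 CPM in the other microbead libraries. *Col2a1*, the main fibrillar collagen of vitreous and cartilage, was at 67.9, 42.7 and 54.5 CPM in saline retina and at 58.2, 61.7 and 72.4 CPM in microbead retina. These ranges overlapped (log2 fold change 0.22, adjusted p 0.496). The ratio of *Col11a1* to *Col2a1* per kilobase was 0.0561 ± 0.0394 in saline retina and 0.227 ± 0.0352 in microbead retina.

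*Col1a1*, *Col1a2* and *Col3a1*, the chains of the collagens that fill scar, sclera and dermis, had log2 fold changes below 0. *Col1a1* was at 2.90, 2.88 and 5.16 CPM in saline retina and at 1.18, 3.75 and 2.92 CPM in microbead retina. *Col1a2* was at 3.11, 2.01 and 3.85 CPM and then at 1.90, 1.52 and 1.56 CPM, so that its groups did not overlap. *Col3a1* was at 1.83, 1.31 and 3.82 CPM and then at 0.926, 2.02 and 0.520 CPM. None of the 3 passed the test, with log2 fold changes of -0.49, -0.84 and -1.01 and adjusted p-values of 0.514, 0.173 and 0.279, and in all 3 saline replicate 3 was the highest library. Their partner in fibrils, *Col5a2*, was at a log2 fold change of 0.07 (adjusted p 0.938).

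Of the 9 FACIT genes, 2 rose. *Col20a1* on chromosome 2 from 180986535 to 181018363 was at 19.7, 13.0 and 3.54 CPM in saline retina and at 27.8, 46.2 and 61.7 CPM in microbead retina, a log2 fold change of 1.90 with a standard error of 0.52 (adjusted p 0.0439). Another gene on the same strand covers 1.54% of its exons. *Col16a1* on chromosome 4, a collagen linked to fibrils and to cell adhesion, was at 1.09, 1.29 and 0.485 CPM in saline retina and at 3.60, 3.10 and 3.90 CPM in microbead retina (1.88 ± 0.45, adjusted p 0.0290). In both, no library of 1 group fell within the range of the other.

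Type IX collagen, a heterotrimer of *Col9a1*, *Col9a2* and *Col9a3* products that sits on type II fibrils, did not pass the test in any chain. *Col9a1* was at 17.5, 29.5 and 41.0 CPM in saline retina and at 62.9, 51.2 and 35.7 CPM in microbead retina (log2 fold change 0.77, adjusted p 0.128). *Col9a2* was at 7.38, 9.73 and 13.1 CPM and then at 8.75, 8.38 and 7.28 CPM (-0.31, adjusted p 0.468), and *Col9a3* was at 0.49 with an adjusted p of 0.285. The ranges of *Col9a1* overlapped through saline replicate 3 and microbead replicate 3. Of the other FACIT genes, *Col12a1* was at a log2 fold change of 1.13 (adjusted p 0.116), *Col14a1* at -0.17, *Col19a1* at -0.51 and *Col22a1* at -0.64. None passed the edgeR test. The FACIT genes summed to 74.4 ± 9.12 CPM in saline retina and 135 ± 7.90 CPM in microbead retina.

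Of the 4 transmembrane collagens, which are anchored in the plasma membrane and can be shed, 1 rose. *Col13a1*, found at cell contacts and at the neuromuscular junction, was at 0.770, 0.539 and 0.228 CPM in saline retina and at 3.76, 2.24 and 3.12 CPM in microbead retina. No microbead library was within the saline range, and the log2 fold change was 2.56 with a standard error of 0.52 (adjusted p 0.0191). *Col23a1* was the collagen with the highest level per kilobase in saline retina, at 16.1 CPM per kb, and at 16.5 in microbead retina. It was at 81.7, 89.7 and 105 CPM in saline retina and at 83.3, 104 and 96.9 CPM in microbead retina, and these ranges lay over each other (log2 fold change 0.04, adjusted p 0.901). Its part of the summed collagen CPM was 19.1% ± 3.10 in saline retina and 11.1% ± 0.849 in microbead retina (SD, n = 3). *Col17a1* and *Col25a1* had log2 fold changes of 0.94 and 0.73 with adjusted p-values of 0.077 and 0.0722.

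None of the 6 type IV genes passed the test. *Col4a1* and *Col4a2*, which encode the network of nearly every basement membrane and start 21 bases apart on opposite strands of chromosome 8, were the most abundant of them. *Col4a1* was at 47.5, 36.9 and 43.0 CPM in saline retina and at 45.9, 58.3 and 62.6 CPM in microbead retina (log2 fold change 0.39 ± 0.19 SE, adjusted p 0.187). *Col4a2* was at 37.0, 38.8 and 45.1 CPM and then at 36.0, 60.1 and 72.4 CPM (0.48 ± 0.25, adjusted p 0.222). Microbead replicate 1 lay within or below the saline range for both genes, and the other microbead libraries lay above it. The ratio of *Col4a1* to *Col4a2* per kilobase was 0.943 ± 0.169 in saline retina and 0.920 ± 0.189 in microbead retina.

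The tissue-restricted type IV chains stood lower. *Col4a3* was at 11.6, 14.3 and 9.76 CPM in saline retina and 14.4, 16.5 and 10.1 CPM in microbead retina, and *Col4a4* at 9.91, 7.38 and 5.96 CPM and then at 8.34, 12.2 and 8.77 CPM. Their log2 fold changes were 0.20 and 0.33 with adjusted p-values of 0.633 and 0.452, and exons of a gene on the opposite strand cover 5.65% of *Col4a3*. *Col4a5* and *Col4a6*, neighbours on chromosome X, had log2 fold changes of 0.58 and -0.23 with adjusted p-values of 0.182 and 0.786, and that of *Col4a6* was 0.20 without saline replicate 1 and 0.08 without microbead replicate 1. Type IV genes took 23.6% ± 0.641 of the summed collagen CPM in saline retina and 17.5% ± 1.25 in microbead retina.

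Of the other collagens of basement membranes and sheets none passed the edgeR test. *Col18a1*, whose protein carries heparan sulfate chains and releases endostatin, was at 20.4, 22.9 and 37.5 CPM in saline retina and at 18.7, 25.8 and 34.2 CPM in microbead retina, with an adjusted p of 0.940. Its log2 fold change was -0.04 and turned positive with upper-quartile scaling (0.0039) and without saline replicate 3 (0.27). *Col15a1*, the other multiplexin, was at 3.21, 1.41 and 0.856 CPM and then at 4.89, 6.14 and 4.55 CPM (1.50, adjusted p 0.0676), and it was called by DESeq2 (adjusted p 0.0123) and limma-voom (0.0432). *Col8a1* and *Col8a2*, the chains of Descemet's membrane of the cornea, were highest in saline replicate 3, at 12.4 and 10.2 CPM. In the other saline libraries *Col8a2* was at 1.06 and 2.61 CPM and in the microbead libraries at 1.81 to 2.34 CPM, and its log2 fold change of -1.13 was 0.19 without saline replicate 3. *Col26a1* was at a log2 fold change of 0.01.

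Both collagen genes under the low-count filter were close to the limit of counting. *Col10a1*, the collagen of hypertrophic cartilage, had 4, 6 and 3 counts in saline replicates 1 to 3 and 0, 0 and 2 counts in microbead replicates 1 to 3. *Col28a1* had 7, 12 and 7 counts in saline retina and 39, 7 and 5 counts in microbead retina, so that microbead replicate 1 alone held most of its counts. Scaled for depth, it was at 0.186, 0.249 and 0.200 CPM in saline retina and at 2.01, 0.505 and 0.325 CPM in microbead retina. The groups did not overlap on that scale, though few counts lie behind these values.

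**Figure D3:**
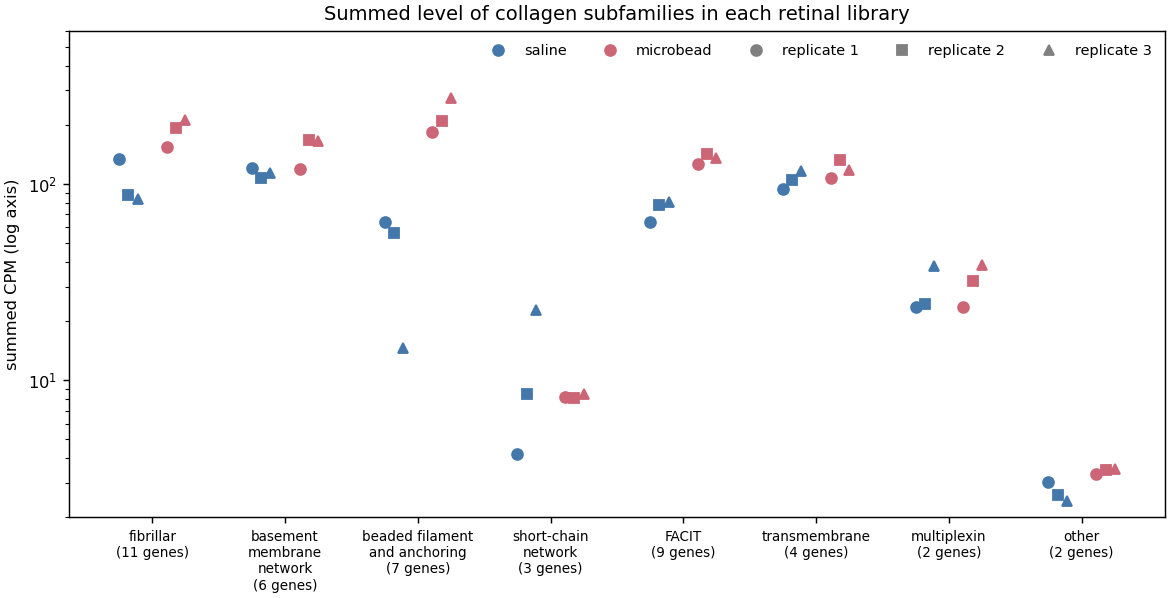
Summed CPM of each collagen class in each library (log axis), saline in blue and microbead in red. Each replicate number has a shape, which is not taken to pair libraries. The beaded filament and anchoring class lies at 14.5 to 64.0 CPM in saline retina and at 185 to 273 CPM in microbead retina, while the multiplexin and transmembrane classes overlap between the groups and the short-chain class spreads from 4.22 to 22.7 CPM within saline retina.

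Saline replicate 3 was the lowest saline library in all 10 genes that rose. Over all 44 genes it was the lowest in 23 and the highest in 13. Leaving it out kept all 10 calls and added *Col7a1*, with smaller fold changes, for example a log2 fold change of 2.11 for *Col6a1* and 1.91 for *Col11a1*. With a saline library left out, 15, 3 and 11 of 41 collagen genes rose for replicates 1, 2 and 3 in turn, where 7.83%, 0.815% and 4.32% of all tested genes rose. With a microbead library left out, 2, 2 and 1 of 43 rose in the same order, where 1.93%, 2.28% and 0.135% of all tested genes rose. The collagen count and the share of all tested genes were both highest without saline replicate 1 and lowest without microbead replicate 3. They did not move together throughout. Without saline replicate 3, 11 collagen genes rose against 10 with all libraries, while the share of all tested genes was 4.32% against 6.46%. Direction held for the 10 genes in all 6 of these fits. The groups did not overlap in any of the 10, so this outcome was all but fixed and adds no support. *Col6a2* was called in all 6, with log2 fold changes of 1.89 to 2.23, *Col11a1* in 4, *Col6a1* and *Col13a1* in 3 each, and the other 6 genes in 2 each.

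**Figure D4:**
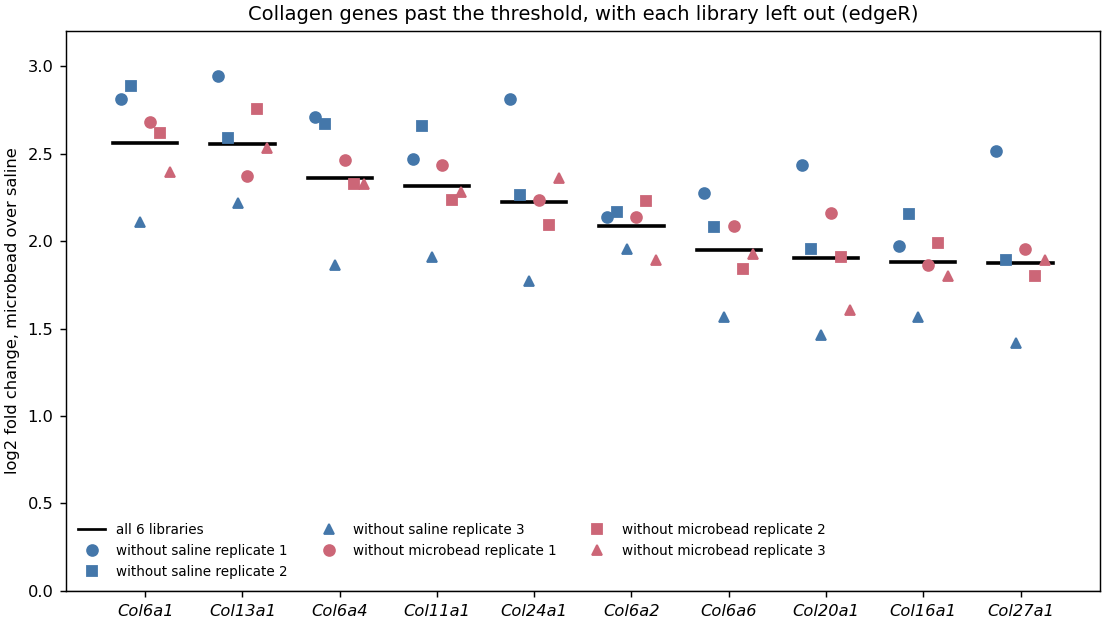
Log2 fold change of the 10 collagen genes that rose, with all 6 libraries (black line) and with each library left out in turn (points; blue for a saline library left out, red for a microbead library). Every point lies above 0, as is all but fixed for genes whose groups do not overlap. *Col6a2* has the narrowest range, 1.89 to 2.23, and for most genes the smallest value is the one without saline replicate 3.

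The median exon length of the genes that rose was 7973.5 bases and median GC content 57.0%, against 7648.5 bases and 54.5% for the other tested collagen genes. Of the 44 genes, 41 shared no stretch of 100 bases with transcripts of another locus, and the largest share was 2.42% in *Col6a6*.

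Genes whose products make, bind or degrade collagen, or share its matrix and signals, were counted beside it. Of 103 such genes, 97 were tested, 2 rose and 7 fell, with a median log2 fold change of -0.29. Both that rose act on new chains in the endoplasmic reticulum. *Plod2*, a lysyl hydroxylase that sets the type of crosslink, was at 17.3, 14.2 and 10.9 CPM in saline retina and at 36.0, 27.9 and 24.9 CPM in microbead retina (log2 fold change 1.07, adjusted p 0.0229). *Ppib*, a prolyl isomerase of the same compartment, rose by 0.67 on the log2 scale (adjusted p 0.0320). *Serpinh1*, the collagen chaperone HSP47, fell, from 18.4, 16.4 and 24.1 CPM to 9.01, 8.52 and 7.67 CPM (-1.22, adjusted p 0.0157). These 20 folding genes had a median of 0.03.

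Among 11 tested genes of propeptide removal and crosslinking 1 fell, *Tll1*, a procollagen C-proteinase (-1.22, adjusted p 0.0426). Among 9 collagen receptors 1 fell, *Ddr1*, a receptor tyrosine kinase for collagen (-0.76, adjusted p 0.0337). Of 16 other basement membrane genes 1 fell, the laminin chain *Lamb2* (-1.13, adjusted p 0.0253). Of 13 proteoglycans and glycoproteins of fibrils 1 fell, *Sparc*, a collagen-binding matricellular protein, from 469, 252 and 411 CPM to 212, 215 and 194 CPM (-0.87, adjusted p 0.0409). Of 17 genes of TGF-beta signalling 2 fell, *Ltbp1*, which stores the latent growth factor in the matrix (-1.57, adjusted p 0.0161), and *Smad4* (-0.74, adjusted p 0.0441). None of 11 tested proteases and inhibitors passed the test, with a median log2 fold change of -0.30, and *Mmp8* was not analysed here. Over all tested genes 6.46% rose and 6.31% fell.

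Markers of cells that make collagen were read beside these values. The 10 endothelial genes summed to 472 to 674 CPM in saline retina and 296 to 443 CPM in microbead retina, and 4 of them fell. Of 10 genes of pericytes and smooth muscle 1 fell (136 to 217 and 108 to 174 CPM), and of 10 Müller glia genes 3 fell (5586 to 9334 and 4690 to 5725 CPM). The 10 fibroblast genes summed to 50.5 to 71.6 CPM in saline retina and 50.5 to 72.4 CPM in microbead retina with none called, and *Prelp*, at 43.3 to 64.6 CPM, made up most of it. The fibroblast gene *Lum* was at or near 0 in every library, at 0.130 CPM or less, but others of the list were not. *Fmod* was at 3.11, 2.68 and 8.22 CPM in saline replicates 1 to 3 and *Fbln1* at 1.27, 1.18 and 3.71 CPM. Among saline libraries *Prelp*, *Dcn* and *Mfap5* were instead highest in replicate 1, and *Pi16* and *Clec3b* in replicate 2. In the astrocyte list 1 of 5 genes fell (65.6 to 96.9 and 80.5 to 90.0 CPM), in the microglia list 1 of 10 and in the rod list 1 of 11, while none of the 10 retinal ganglion cell genes was called. No tested marker gene of the 10 lists rose, where 6.46% of all tested genes rose and 6.31% fell. Only 2 lens and cornea genes and 8 fibroblast genes had enough counts to be tested. Which cells carried the collagen RNA was not tested.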

How the data were processed

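Stranded poly(A) libraries of whole retina, read as 100-bp pairs, were made from 3 saline and 3 microbead samples, grouped by the sample records. The authors aligned reads with STAR 2.5.3a to GRCm38.p5 with GENCODE vM12 and counted them per gene with featureCounts 1.15.2 (versions per the submitters' processing notes), and they deposited raw counts. Whether strand was used in counting is not given in the sources used here. The deposited table also holds the authors' DESeq2 comparison (mean signal, log2 fold change, linear fold change or ratio, p-value, adjusted p-value and a mark of calls), which was not used.

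All 31169 genes entered filterByExpr (minimum count 10, minimum total 15). Counts were scaled by TMM and tested with edgeR 4.0.16 (quasi-likelihood, two-sided, R 4.3.3), with Benjamini-Hochberg adjustment over the 17707 genes kept and a threshold of 0.05. The depth, 13574949 to 46481382 counts a library, sets the precision of genes near the filter. The standard error given for an edgeR log2 fold change was derived from the test, as its absolute value divided by the square root of the quasi-likelihood F. CPM per kb divides CPM by the union exon length in GENCODE vM21. The script was tested on simulated data. The tools DESeq2 1.42.0 and limma-voom (limma 3.58.1) were run as alternatives, as were scaling by upper quartile, by RLE or with the top 100 genes by abundance kept out of library sizes, a stricter filter of 10 counts per gene in each library, omission of the filter, a replicate block, an offset for GC content and length (splines, 5 degrees of freedom), an adjusted p under 0.01, and each library left out.

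The collagen genes and all other lists were chosen with earlier results of these data known. Named genes are those past the threshold, the 10 with the highest level per kb, the 6 type IV genes, untested members, and up to 2 genes of each other list with the largest change past the threshold; further collagen genes were named after their values were seen, as were *Ppib* and the marker genes.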

Additional observations from a re-analysis of the deposited data

How the results depend on the processing

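The 10 collagen genes that rose became 17 with no filter on low counts, 17 with the offset for GC content and gene length, 4 with the replicate block and 1 (*Col6a2*) at an adjusted p under 0.01, and ranged from 1 to 15 with a library left out. Under the other alternatives the count was 8 to 15, and no collagen gene was called lower under any of these settings. Over all tested genes, 1143 of 17707 rose in the main fit and 1511 of 31169 with no filter. It was 1397 with the offset, 480 with the replicate block, 690 with block and offset, and 26 to 1356 with a library left out. DESeq2 called 1791 of 20874 higher, and the remaining alternatives 1159 to 1252. The number of all genes at an adjusted p under 0.01 is not given here. With the replicate block *Col6a1*, *Col6a2*, *Col11a1* and *Col13a1* kept their calls. Same-numbered libraries correlated at -0.04, 0.14 and 0.01 over all genes in their deviations from the group means. Libraries with different numbers correlated at -0.196 to 0.143. These values show no sign that the numbers pair libraries, but with 3 libraries a group they cannot exclude it. The median log2 fold change of the collagen genes stayed between 0.49 and 0.67 and the log2 ratio of their summed CPM between 0.74 and 0.93, while the median of all genes was -0.23 with no filter and within 0.05 of 0 otherwise. Of the other matrix genes, the 2 that rose became 1 with the replicate block, 1 with the block and offset together and 0 at an adjusted p under 0.01, ranging from 0 to 5 with a library left out. The 7 that fell became 4 with library sizes without the 100 most abundant genes, 11 with no filter, 11 with DESeq2, 3 with the replicate block, 3 with block and offset, and 0 at an adjusted p under 0.01, ranging from 0 to 5 with a library left out. Over all tested genes 1118 fell in the main fit. In the order of these settings 847, 2209, 1765, 425 and 508 fell, and 20 to 1265 with a library left out. Some uncalled genes changed sign. *Col23a1* was at -0.012 with no filter and at -0.044 to 0.145 with a library left out. *Col18a1* was at 0.0039 with upper-quartile scaling, 0.036 with library sizes without the 100 most abundant genes, 0.15 with the offset, 0.18 with block and offset, and at -0.29 to 0.27 with a library left out, above 0 without saline replicate 3 or microbead replicate 1. *Col4a6* was at -0.60 to 0.20 with a library left out, above 0 without saline replicate 1 or microbead replicate 1. The cause of these changes was not tested. Among the other uncalled collagen genes, *Col6a3*, *Col5a2*, *Col26a1*, *Col8a1* and *Col8a2* also changed sign with a library left out. With limma-voom and with the replicate block, *Col8a1* was above 0 and *Col5a2* and *Col26a1* were below 0. *Col26a1* was also below 0 with no filter, and *Col8a1* and *Col14a1* were above 0 with block and offset. Depth limits *Col10a1* and *Col28a1*, which fell under the filter. With no filter *Col10a1* was at -1.29 (edgeR adjusted p 0.639), and *Col28a1* was at 2.10 (0.0660) and with DESeq2 at 2.18 (0.0663). In fits with a library left out, *Col28a1* was at 0.94 to 2.55, the lowest without microbead replicate 1, and did not pass.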
